A study of Mus musculus with 2 samples.

Results

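Keratins are the intermediate filament proteins of epithelial cells. A type I keratin assembles with a type II keratin, and each epithelial layer and lineage uses its own pairs. In the mammary gland, simple keratins such as *Krt7*, *Krt8* and *Krt19* mark the luminal cells that line the ducts, and *Krt5*, *Krt14* and *Krt17* mark the basal layer around them. Neurons and glia build other intermediate filaments, namely neurofilaments, vimentin and GFAP. The keratin genes described here are all genes of the deposited feature table whose symbol is Krt followed by a number and at most 1 letter. They are 48 of the 19465 genes, 6 of them luminal, 4 basal, 13 of stressed or suprabasal epithelium, 5 of cornea or other sites, and 20 of hair and its root sheath. Keratins *Krt18*, *Krt33b*, *Krt74*, *Krt79*, *Krt86* and *Krt88* were not analysed here. On GRCm38, 26 members lie on chromosome 11 between 99232761 and 100269951 and 22 on chromosome 15 between 101348315 and 102004342, which are the type I and type II keratin clusters.

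The values come from cerebellar sections of 2 mice, 1 section of 5 µm per animal, in which tumors had grown from HP organoids. HP organoids carry a human HER2 transgene with the V777L change, driven by the actin promoter behind a Lox-STOP-Lox cassette, and PIK3CA with the H1047R change. The primary tumors were raised with Cre adenovirus in the mammary gland, and the dissociated organoid cells, labeled with luciferase, were injected directly into the cerebellum of 5-month-old syngeneic C57BL/6 mice. The labels name replicate 1 (section 1) HP-F1 +cre and replicate 2 (section 2) HP-B6 +cre, and both genotypes HP with no treatment, so there was 1 labeled condition and the comparison lay between regions of each section. Both carry the same cell line label, of B6-HP organoids, and the labels do not say what F1 and B6 mark in the names, so a difference in source between the sections cannot be told apart from one between animals. Injection leaves out the steps by which cells reach the brain. Mice of this model were imaged by MRI at 3 weeks and then killed, and the time is not stated for these 2 brains by themselves. Formalin-fixed tissue was read with the Visium CytAssist assay, in which pairs of probes against mouse transcripts are captured on barcoded spots and counted as unique molecular identifiers (UMIs). Each spot covers tissue of several cells. Levels of different keratins depend on their probes, so shares of keratin UMIs are shares of what these probes counted, and are set against each other only between regions and sections.

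Each section was divided without the use of any keratin. Spots low in a list of neural transcripts, in connected areas of at least 100 spots, made up the tumor side; spots within 2 array steps of the border, on either side, made up the edge; the other spots were tumor interior (here "tumor") or neural tissue. Section 1 had 670 tumor, 230 edge and 2415 neural spots, and section 2 had 662, 338 and 2852. Neural tissue of section 2 includes spots close to smaller low-neural areas, 1 of them rich in keratins, which are described last. The sums of these regions held 6513405 to 36349768 UMIs, and the median tumor spot held 56874.5 and 42097.5 UMIs against 7662 and 9836.5 in neural spots of section 1 and section 2. Levels are UMIs per 1000000 UMIs (CPM) after TMM scaling. In such sums, fewer cells of a type and less RNA per cell cannot be told apart.

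The tumors of both sections differed in their epithelial content, so levels below are given for each section. A list of 17 epithelial genes without keratins (such as *Epcam*, *Cdh1* and *Cldn7*) summed to 87.3 CPM in the tumor, 93.0 in the edge and 77.9 in the neural tissue of section 1. In section 2 the sums were 9978, 4561 and 285 CPM. *Epcam*, which encodes an adhesion protein of epithelial cells, was at 7.14 CPM in the tumor of section 1 and 2114 CPM in that of section 2. In neural tissue it was at 3.44 and 46.0 CPM. Members of the list went both ways in section 1, with *Cdh1* at 7.43 CPM in tumor against 3.80 in neural tissue and *Cldn7* at 1.93 against 3.20 CPM. No gene of the list was at 0 in any sum. The sum of 8 fibroblast and meningeal genes went the other way, at 59813, 30815 and 1065 CPM in section 1 and 491, 1071 and 374 in section 2. Its largest members in the section 1 tumor were the collagen genes *Col1a1* (23869 CPM), *Col1a2* (20035 CPM) and *Col3a1* (11989 CPM). Other members fell, and *Ptgds* was at 31.2 CPM in tumor against 396 CPM in neural tissue of section 1, and at 12.5 against 232 CPM in section 2. *Slc6a13* was also lower in both tumors. Thus the tumor side of section 1 was rich in transcripts of collagen-producing cells. It held the sum of the epithelial list at about its level in neural tissue, although its label names breast tumor organoids. Each section is 1 animal, so the difference between sections has no replicate check, and its part in the results below was not tested.

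Keratin transcripts followed this difference. They made up 9735 UMIs in section 1 and 299304 in section 2. The luminal keratins summed to 37.4, 28 and 16.0 CPM in tumor, edge and neural tissue of section 1, and to 6891, 3243 and 153 CPM in section 2. The basal keratins summed to 2.85, 3.19 and 1.90 CPM in section 1 and to 1936, 1504 and 80.5 CPM in section 2. In section 2 both groups were therefore highest in the tumor, intermediate in the edge and lowest in neural tissue, and in section 1 only the luminal sum had that order. The hair keratins summed to 45.3, 52.2 and 61.7 CPM in section 1 and 35.3, 36.2 and 45.8 CPM in section 2, with the highest sum in neural tissue in both. Luminal keratins accounted for 75.5% of the keratin UMIs of the section 2 tumor and basal keratins for 21.2%. In the section 1 tumor the luminal share was 28.9%, the basal share 2.20% and the hair share 34.9%.

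**Figure D1:**
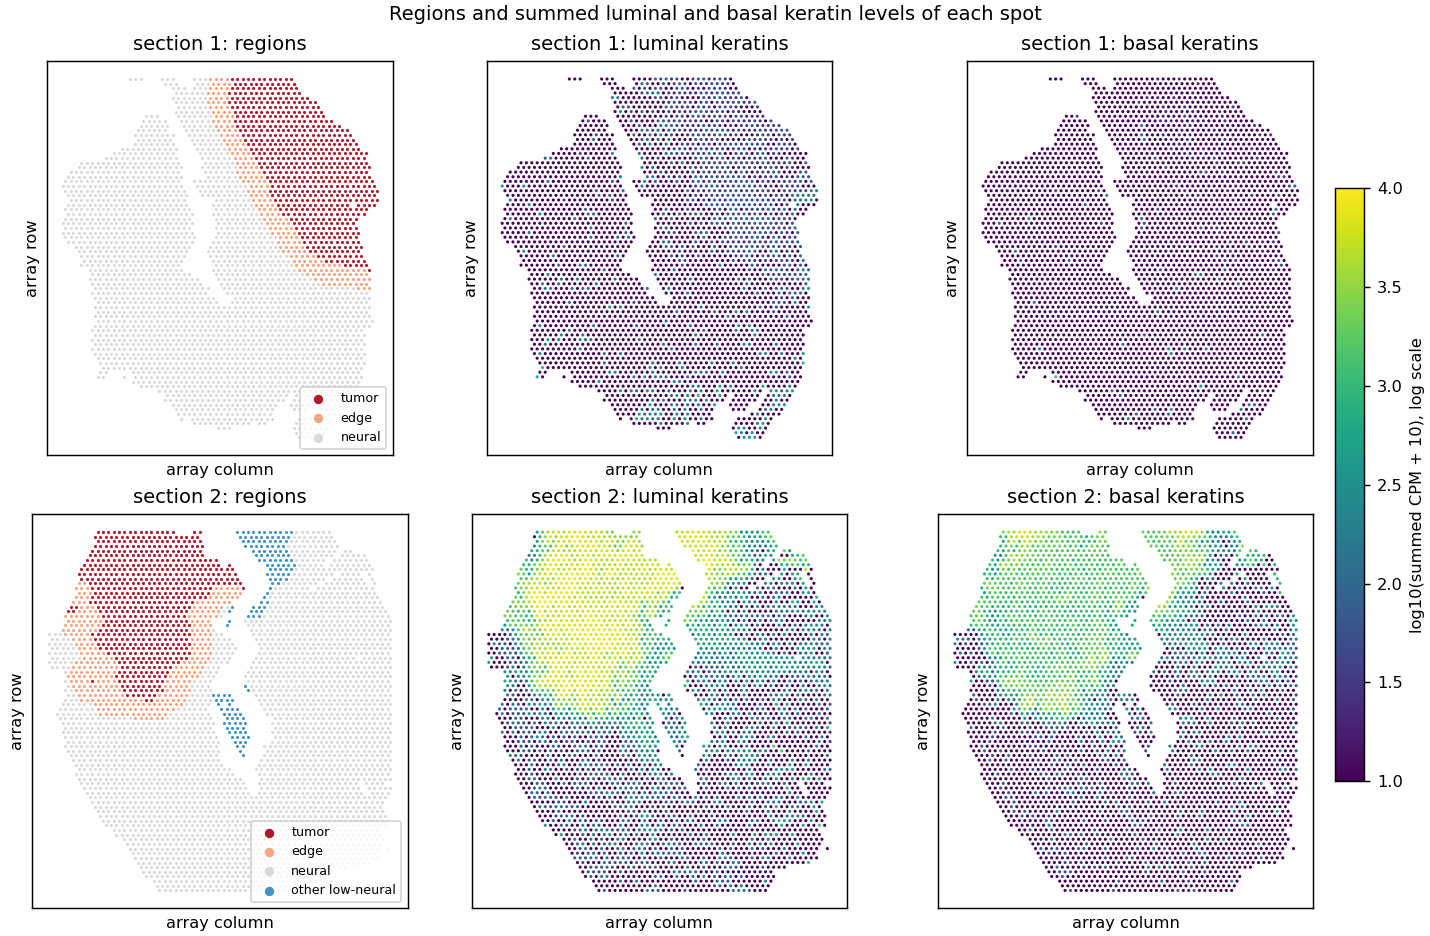
Maps of section 1 (top) and section 2 (bottom), with each spot at its row and column of the array, colored by region (left) and by log10 of the summed CPM plus 10 of the luminal (middle) and basal (right) keratins. In section 2 both sums fill the tumor, at 6891 and 1936 CPM over all tumor spots, and in section 1 they stay at 37.4 and 2.85 CPM.

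The starts of 4 of the keratin genes are shown as examples of those described below. *Krt7* is a luminal gene with high levels in section 2 alone, and *Krt8* a luminal gene higher in both tumors. *Krt5* is a basal gene with its highest level in section 2 at the edge, unlike the other basal keratins. *Krt25* is a hair keratin with more counts in neural tissue. Each line gives the 120 bases before the annotated start, 5′ to 3′ on the gene's strand, from RefSeq on GRCm38.p6. Capitals mark the GC box GGGCGG and the letters ATAAA, with which the TATA box sequence TATAAA ends, each searched on both strands. Of the lines shown only *Krt25* reads TATAAA, and in *Krt7* the ATAAA lies next to the annotated start. The windows are chr15:101412283-101412402 on the plus strand for *Krt7*, chr15:102004343-102004462 on the minus strand for *Krt8*, chr15:101712906-101713025 on the minus strand for *Krt5* and chr11:99322952-99323071 on the minus strand for *Krt25*.
Krt7: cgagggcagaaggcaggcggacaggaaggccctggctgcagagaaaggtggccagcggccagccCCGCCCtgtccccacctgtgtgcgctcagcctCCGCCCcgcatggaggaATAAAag
Krt8: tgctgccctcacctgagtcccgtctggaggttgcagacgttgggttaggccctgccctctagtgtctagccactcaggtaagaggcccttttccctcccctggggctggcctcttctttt
Krt5: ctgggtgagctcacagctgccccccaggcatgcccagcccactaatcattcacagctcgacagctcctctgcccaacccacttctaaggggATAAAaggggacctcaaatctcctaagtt
Krt25: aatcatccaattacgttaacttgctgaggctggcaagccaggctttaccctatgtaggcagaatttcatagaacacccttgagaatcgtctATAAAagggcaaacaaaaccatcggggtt

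*Krt7* held 2 GC boxes and 1 ATAAA, *Krt5* and *Krt25* 1 ATAAA each, and the *Krt8* window neither motif. The G and C content was 68.3% for *Krt7*, 60% for *Krt8*, 55.8% for *Krt5* and 43.3% for *Krt25*. Promoters were listed for 33 of the 48 keratins, 34 promoters in all. ATAAA lay in the 120 bases before the start of 25 of these 34 (73.5%), against 20.2% of all 32851 promoters of the table. The GC box lay in 2 of 34 (5.88%) against 26.5% of all, and the AP-1 element TGANTCA in 1 of 34 (2.94%) against 3.41%. Among the hair keratins 13 of 15 promoters held ATAAA. A match is a description of these letters anywhere in the window, and not of a TATA box or a bound factor.

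Region sums entered edgeR's quasi-likelihood test, in which the section was a block, and a gene was called at a Benjamini-Hochberg adjusted p below 0.05 over all 19229 genes tested. All 48 keratins passed the filter on low counts. Between tumor and neural tissue, 7 keratins were called, 3 higher in the tumor (*Krt8*, *Krt15* and *Krt17*) and 4 lower (*Krt222*, *Krt25*, *Krt34* and *Krt9*). Of all genes 29.7% were called, 14.0% higher and 15.7% lower. With library size as the sole scaling, the keratins split into 3 higher and 9 lower, and with DESeq2 into 6 higher (*Krt5*, *Krt7*, *Krt8*, *Krt14*, *Krt17* and *Krt80*) and 3 lower (*Krt222*, *Krt25* and *Krt34*). Without the block only *Krt222* and *Krt25* were called, and the adjusted p was 0.460 for *Krt17*, 0.273 for *Krt15*, 0.132 for *Krt34* and 0.152 for *Krt9*. Of all genes 6909 were called with library size alone, 7028 with DESeq2 and 3626 without the block. The median log2 fold change was −0.21 over the keratins and −0.14 over all genes. The luminal median was 2.72, with 1 of 6 genes called, and the basal median 3.53, with 2 of 4. Between edge and neural tissue, *Krt15* and *Krt17* were called higher and *Krt222* lower, against 14.2% of all genes, 6.84% higher and 7.33% lower. Between tumor and edge no keratin and no gene at all (0%) was called by edgeR. No keratin was called there under the edgeR alternatives either, while 120 genes were with RLE factors, 355 with scaling by library size and 287 with an edge of 1 step. At an unadjusted p below 0.05, that comparison had 2 keratins (*Krt222* and *Krt34*) and 2104 genes in all, and DESeq2 called 970 genes with *Krt222* as the only keratin. There DESeq2 left 16 other keratins uncalled and gave the remaining keratins no adjusted p. The fit has 2 residual degrees of freedom.

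Between tumor and neural tissue, 6 keratins were higher in the tumor of both sections, 22 were lower in both and 19 went in opposite directions. *Krt15*, without a UMI in any region of section 1, was left out of this count. Beyond a log2 difference of 1 in both sections, 1 keratin was higher (*Krt8*), 2 were lower (*Krt222* and *Krt25*) and 0 went in opposite directions. Each of the 19 thus differed by no more than 1 in at least 1 section. These splits were not counted over all genes. The large differences of the other luminal and basal keratins lay in section 2 alone. In the section 1 tumor, only *Krt8*, *Krt10*, *Krt13* and *Krt80* stood above the highest hair keratin, which was at 3.63 CPM.

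**Figure D2:**
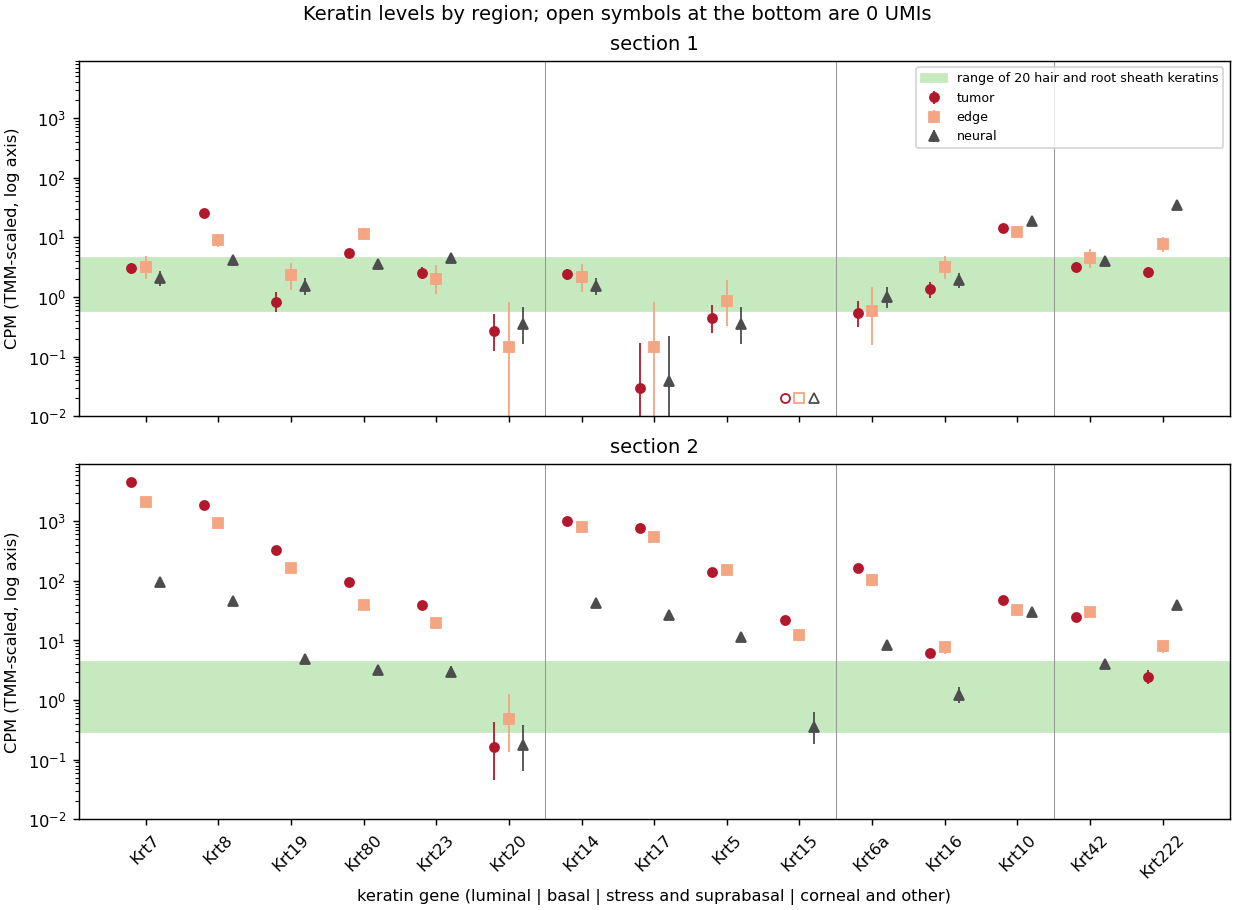
Levels of 15 keratins in tumor, edge and neural tissue of section 1 (top) and section 2 (bottom), in TMM-scaled CPM on a log axis, with bars for 95% Poisson counting intervals, open symbols for 0 UMIs and a green band for the range of the 20 hair keratins. *Krt8* is higher in tumor than in neural tissue in both sections (25.3 against 4.11 CPM and 1848 against 46.8 CPM), *Krt7* and *Krt14* only in section 2 by a wide margin, and *Krt222* is lower in both tumors.

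Among the luminal keratins, *Krt8* was the gene with the same order in both sections. *Krt8*, the main type II keratin of simple epithelia, was at 25.3 CPM in the tumor, 8.98 in the edge and 4.11 in the neural tissue of section 1, and at 1848, 923 and 46.8 CPM in section 2. Tumor exceeded edge, and edge exceeded neural tissue, in both. The log2 fold change of tumor over neural tissue was 3.74 ± 0.93 (SE, 2 sections; adjusted p = 0.0451, edgeR), from 2.48 within section 1 and 5.29 within section 2. The call is close to the threshold. It was lost with a border at the midpoint of percentiles (adjusted p = 0.0501), without smoothing of the neural share (0.0520) and without the section as a block (0.267). The edge was 2.59 higher than neural tissue on the log2 scale (adjusted p = 0.139).

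*Krt7*, the type II keratin of ductal and glandular epithelium, stood at 3.0, 3.19 and 2.06 CPM in tumor, edge and neural tissue of section 1. In section 2 it was at 4578, 2097 and 94.8 CPM. The 3 regions of section 1 lay within a narrow range, and those of section 2 spread widely. The log2 fold change of tumor over neural tissue was 2.84 ± 1.48 (adjusted p = 0.204, edgeR), with 0.45 in section 1 and 5.59 in section 2. DESeq2 called this difference (adjusted p = 0.0172).

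*Krt19*, the type I keratin of ducts that lacks the usual tail, was at 0.833, 2.32 and 1.54 CPM in section 1 and at 332, 163 and 4.99 CPM in section 2. Its direction was opposite in both sections (log2 difference −0.62 in section 1 and 5.92 in section 2), and the fit gave 2.61 with an adjusted p of 0.364. In section 1 its tumor and neural levels lay within the ranges of the hair keratins (0.714 to 3.63 and 1.30 to 4.51 CPM). *Krt80*, a type II keratin of many epithelia, was at 5.53, 11.3 and 3.52 CPM in section 1 and at 94.7, 38.8 and 3.23 CPM in section 2. It was highest at the edge in section 1 and in the tumor in section 2 (tumor over neural tissue 2.86 on the log2 scale, adjusted p = 0.132 by edgeR and 0.00374 by DESeq2). *Krt23*, a type I keratin, was at 2.53, 2.03 and 4.43 CPM in section 1 and at 38.8, 19.8 and 3.02 CPM in section 2, again opposite in direction. Its section 1 levels also lay within the ranges of the hair keratins. *Krt20*, a keratin of gut and urothelium, had 33 UMIs over the 6 sums, between 0.145 and 0.491 CPM.

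The mix of luminal keratins also differed between sections. Of the UMIs of *Krt7* and *Krt8* together, *Krt8* gave 89.4% in the tumor of section 1 (95% Wilson interval 87.3 to 91.2, 951 UMIs) and 28.8% in that of section 2 (28.5 to 29.0, 155751 UMIs). In neural tissue these shares were 66.7% (58.9 to 73.6) and 33.0% (31.7 to 34.4). The shares of the tumors were far apart compared with counting error, which is all that these intervals cover. In section 2 the share was 52.8% (45.1 to 60.4, 159 UMIs) in the neural spots farthest from the border.

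Basal keratins had 96, 22 and 48 UMIs in tumor, edge and neural tissue of section 1, and nearly all of their counts came from section 2. *Krt14*, the type I partner of *Krt5* in basal cells, was at 2.38, 2.17 and 1.5 CPM in tumor, edge and neural tissue of section 1. In section 2 it was at 1007, 800 and 42.4 CPM. The regions of section 1 were close together, and tumor over neural tissue was 2.47 ± 1.18 on the log2 scale (adjusted p = 0.176 by edgeR, 0.0230 by DESeq2).

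*Krt17*, a type I keratin of basal and activated epithelium, had 1 UMI in each region of section 1, or 0.0297, 0.145 and 0.0395 CPM. In section 2 it was at 765, 538 and 26.4 CPM. The call for tumor over neural tissue (log2 fold change 4.51 ± 0.82, adjusted p = 0.0210, edgeR) and that for edge over neural tissue (4.26 ± 0.83, adjusted p = 0.0419) thus rest on section 2. Within section 1 the difference of tumor and neural tissue was −0.03 on the log2 scale.

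*Krt15*, a type I keratin of basal and stem-like epithelial cells, had no UMI in section 1, where a count of 0 allows up to 0.0892 CPM in the tumor, 0.435 in the edge and 0.119 in neural tissue (3 UMIs per sum). In section 2 it was at 22.0, 12.3 and 0.358 CPM. Tumor over neural tissue (5.85 ± 0.62, adjusted p = 0.0225, edgeR) and edge over neural tissue (5.04 ± 0.60, adjusted p = 0.0457) were called from section 2 alone. With no UMI in section 1, these SEs do not measure how far the sections agree. DESeq2 called neither difference of *Krt15* (adjusted p = 0.514 and 0.563).

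*Krt5*, the type II partner of *Krt14*, was at 0.446, 0.869 and 0.356 CPM in section 1 and at 142, 154 and 11.4 CPM in section 2. It was the only basal keratin with its highest level at the edge in section 2, by a small margin. Tumor over neural tissue was 2.56 on the log2 scale (adjusted p = 0.0932 by edgeR, 0.0180 by DESeq2) and edge over neural tissue 2.97 (0.108 by edgeR, called by DESeq2).

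Among the keratins of stressed and suprabasal epithelium, *Krt6a*, which is induced in wounded and hyperproliferative epithelium, was at 0.535, 0.580 and 0.989 CPM in section 1 and at 167, 105 and 8.54 CPM in section 2. *Krt16*, a partner of *Krt6a* in wounded epithelium, was at 1.34, 3.19 and 1.90 CPM and at 6.15, 7.74 and 1.22 CPM. Both stood clear of neural tissue only in section 2, and neither passed the test (tumor over neural tissue 1.88 and 0.90 on the log2 scale, adjusted p = 0.377 and 0.380). *Krt10*, the type I keratin of differentiating epidermis, was present in every region, at 14.0, 12.5 and 18.9 CPM in section 1 and at 47.9, 31.9 and 29.6 CPM in section 2. Its difference of tumor and neural tissue was 0.13 on the log2 scale (adjusted p = 0.781). *Krt42*, a type I keratin of the nail region, was at 3.15, 4.49 and 4.03 CPM in section 1 and at 24.8, 29.8 and 4.03 CPM in section 2. *Krt6a* and *Krt6b*, and *Krt14*, *Krt16*, *Krt17* and *Krt42*, are close relatives in sequence, and how far the probes keep them apart was not given in the sources used here.

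*Krt222* had the pattern opposite to the epithelial keratins, and of all keratins it had the smallest adjusted p between tumor and neural tissue. This little-studied member of the type I cluster was at 2.62 CPM in the tumor, 7.68 in the edge and 34.4 in the neural tissue of section 1, and at 2.48, 7.98 and 38.9 CPM in section 2. The levels of both sections nearly coincided in each region, and no tumor or edge value reached a neural one. Tumor fell below neural tissue by 3.84 ± 0.27 on the log2 scale (adjusted p = 0.00336, edgeR) and edge by 2.23 ± 0.26 (adjusted p = 0.0192). Within sections the tumor differences were −3.49 and −3.73. The regions were divided by neural transcripts, so any gene found mainly in neural tissue is lower in the tumor by that division. The small p and the likeness of both sections therefore in part restate how the regions were made. Tumor was also lower than edge, by −1.62 ± 0.26 on the log2 scale, which edgeR did not call (adjusted p = 0.0915) and DESeq2 did (0.000702). Spots were thinned to 3000 UMIs, which left out shallower ones (5 of 670 tumor and 280 of 2415 neural spots of section 1, and 2 of 662 and 164 of 2852 of section 2). At that depth *Krt222* was seen in 11% of neural spots (95% Wilson interval 9.75 to 12.4) and 0.752% of tumor spots (0.322 to 1.75) of section 1, and in 10.6% (9.49 to 11.8) and 1.21% (0.615 to 2.37) of those of section 2. Without thinning, the shares were 28% and 11.5% in section 1 and 32.2% and 7.85% in section 2.

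Hair keratins were counted at low levels in every region. Over the 20 genes and 6 sums they lay between 0.289 and 4.51 CPM, with a median of 2.26 CPM and 4 to 147 UMIs per sum. A list of 6 other genes of epidermis and hair, such as *Lor* and *Tchh*, summed to 12.2, 15.1 and 23.7 CPM in section 1 and 10.8, 11.2 and 15.5 CPM in section 2, with none at 0. *Krt25*, a type I keratin of the inner root sheath, was at 1.78, 2.32 and 4.15 CPM in section 1 and 1.49, 1.97 and 4.39 CPM in section 2. It was lower in the tumor than in neural tissue by −1.39 ± 0.24 on the log2 scale (adjusted p = 0.0169, edgeR). *Krt34*, a keratin of the hair shaft, was at 1.58, 3.62 and 3.36 CPM and at 0.990, 1.84 and 2.51 CPM (−1.21 ± 0.25, adjusted p = 0.0260). The log2 fold change over the 20 genes ran from −1.39 to 0.33 with a median of −0.34, beside −0.14 over all genes. The 2 of 20 called lower stand beside 15.7% of all genes called lower, and the other 18 members did not pass the test.

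The remaining hair keratins are given by their lowest and highest level over the 6 sums, in CPM. Among the type I genes *Krt26* ran from 1.84 to 4.51 CPM, *Krt27* from 1.23 to 1.78 CPM, *Krt28* from 2.39 to 3.62 CPM and *Krt31* from 0.289 to 1.30 CPM. *Krt32* ran from 1.07 to 3.40 CPM, *Krt33a* from 0.983 to 3.60 CPM, *Krt35* from 1.49 to 2.61 CPM and *Krt36* from 2.06 to 4.49 CPM. *Krt39* ran from 0.866 to 1.78 CPM and *Krt40* from 0.860 to 3.32 CPM. For 6 of these 10 genes the highest level was in the neural tissue of section 1, and none passed the test. Among the type II genes *Krt71* ran from 1.84 to 3.64 CPM, *Krt72* from 1.57 to 2.90 CPM, *Krt73* from 2.48 to 3.48 CPM and *Krt81* from 0.956 to 1.94 CPM. *Krt82* ran from 1.94 to 4.19 CPM, *Krt83* from 1.16 to 2.75 CPM, *Krt84* from 1.61 to 3.36 CPM and *Krt87* from 2.1 to 3.91 CPM.

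Among the other keratins of stratified epithelium and cornea, *Krt9*, a keratin of palm and sole skin, was at 1.25, 1.01 and 3.28 CPM in section 1 and at 0.701, 1.11 and 1.49 CPM in section 2, and tumor was called lower than neural tissue (−1.25 ± 0.30, adjusted p = 0.0389, edgeR; 0.0802 by DESeq2). The epidermal *Krt1* and *Krt2* ran from 0.737 to 2.46 CPM and from 0.784 to 2.45 CPM over the 6 sums. *Krt24* ran from 0.614 to 1.42 CPM and *Krt77* from 0 to 1.74 CPM. The keratins *Krt4* and *Krt13* of the mucosa ran from 1.11 to 3.05 CPM and from 3.07 to 4.51 CPM. *Krt6b* ran from 1.35 to 2.69 CPM, *Krt76* from 0.687 to 1.62 CPM and *Krt78* from 0.926 to 2.46 CPM. The corneal *Krt12* ran from 1.58 to 3.91 CPM, *Krt75*, of the companion layer of the hair follicle, from 1.53 to 3.68 CPM and *Krt90* from 2.09 to 4.05 CPM. None of these but *Krt9* passed the test.

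Keratin levels changed with distance from the border. Spots of section 2 outside the border were left out if a smaller low-neural area was as near as the tumor side or nearer. In section 2, *Krt7* stood at 3776 CPM in tumor spots 3 to 5 steps inside the border and at 2320 CPM 1 to 2 steps inside. It was at 1039 CPM 1 to 2 steps outside, 200 CPM at 3 to 5 steps, 48.0 CPM at 6 to 9 steps and 14.4 CPM at 25 to 41 steps, all in CPM of all UMIs of the spots. From the deepest tumor spots out to 14 steps, each zone was lower than the one before it. In section 1, *Krt8* was at 14.5 CPM in the deepest tumor spots, 30.6 CPM 6 to 8 steps inside the border, 11.5 CPM 1 to 2 steps inside, 6.0 CPM 1 to 2 steps outside and 4.80 CPM at 25 to 64 steps. *Krt80* of section 1 peaked at the border instead, with 3.13 CPM in the deepest tumor spots, 13.4 CPM 1 to 2 steps inside, 9.42 CPM 1 to 2 steps outside and 3.53 CPM at the greatest distance. *Krt222* had the opposite course, with 1.07 CPM in the deepest tumor spots of section 2, 11.3 CPM 1 to 2 steps outside and 52.7 CPM farthest out, and with 2.67, 9.42 and 47.6 CPM at the same places of section 1.

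**Figure D3:**
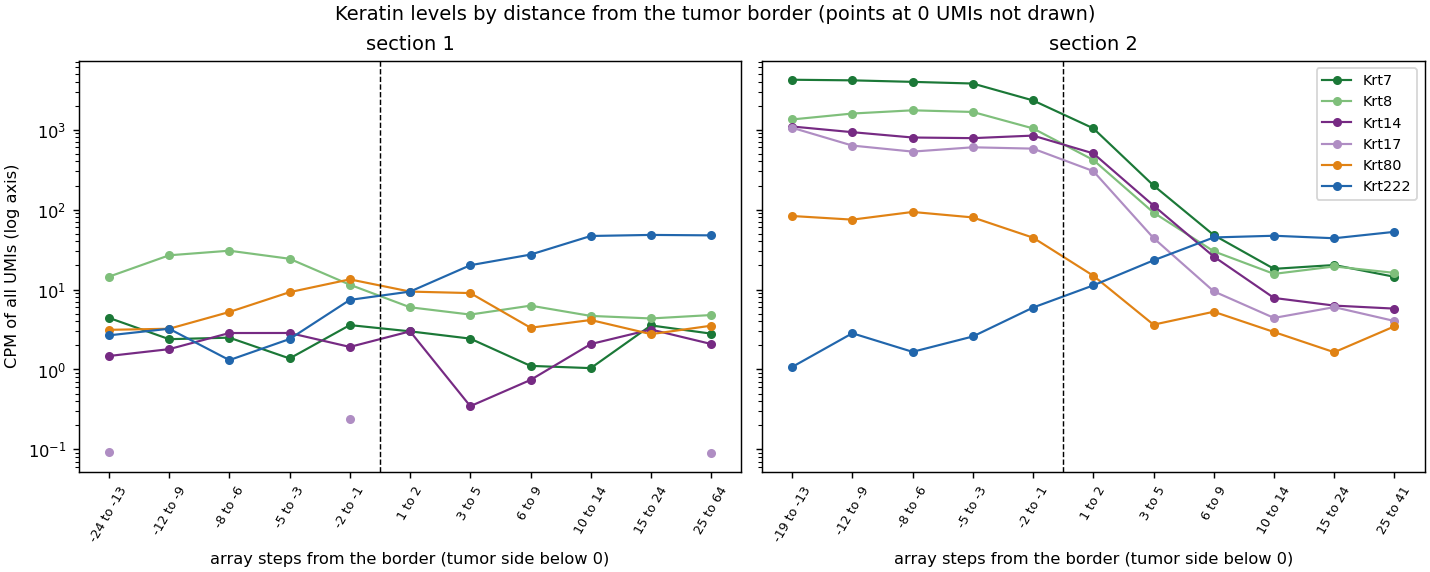
Levels of *Krt7*, *Krt8*, *Krt14*, *Krt17*, *Krt80* and *Krt222* by array steps from the tumor border, in CPM of all UMIs on a log axis, with negative steps inside the tumor, for section 1 (left) and section 2 (right), where points at 0 UMIs are not drawn. *Krt7* of section 2 goes from 3776 to 48.0 CPM between 3 to 5 steps inside and 6 to 9 steps outside, and *Krt222* is higher outside than inside in both sections.

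The share of basal among luminal and basal UMIs was not even over the tumor of section 2. It was 21.9% in the tumor (95% Wilson interval 21.8 to 22.1), 31.7% in the edge (31.2 to 32.1) and 34.5% in neural tissue (33.4 to 35.5). In the neural zone 25 to 41 steps out, which leaves out spots nearer to a detached low-neural area, it was 21.6% (17.1 to 27.0). By distance it was lowest 6 to 8 steps inside the border, at 19.1%, and was 30.6% 1 to 2 steps inside and 37.4% 1 to 2 steps outside. Over the same steps the luminal sum went from 6173 to 3620 and 1525 CPM and the basal sum from 1454 to 1599 and 909 CPM. The basal sum was higher in deeper tumor spots, at 1715 CPM 9 to 12 steps and 2334 CPM 13 to 19 steps inside. The share was also higher in the deepest spots, 13 to 19 steps from the border, at 28.6%. The share also differed by place at the limit of the covered tissue. Tumor spots with fewer than 6 covered neighbors (50 spots) had a basal share of 38.0% (37.0 to 39), and those with 6 (612 spots) 21.2% (21.0 to 21.4). In the deepest spots alone, the share was 40.9% in 22 spots at the tissue limit and 25.6% in the other 83. In section 1 the share was 7.08% (5.84 to 8.58) in the tumor, 10.2% (6.85 to 15) in the edge and 10.6% (8.09 to 13.8) in neural tissue, over 1355, 215 and 453 UMIs. Intervals cover counting error in 1 section and give no test of regions.

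**Figure D4:**
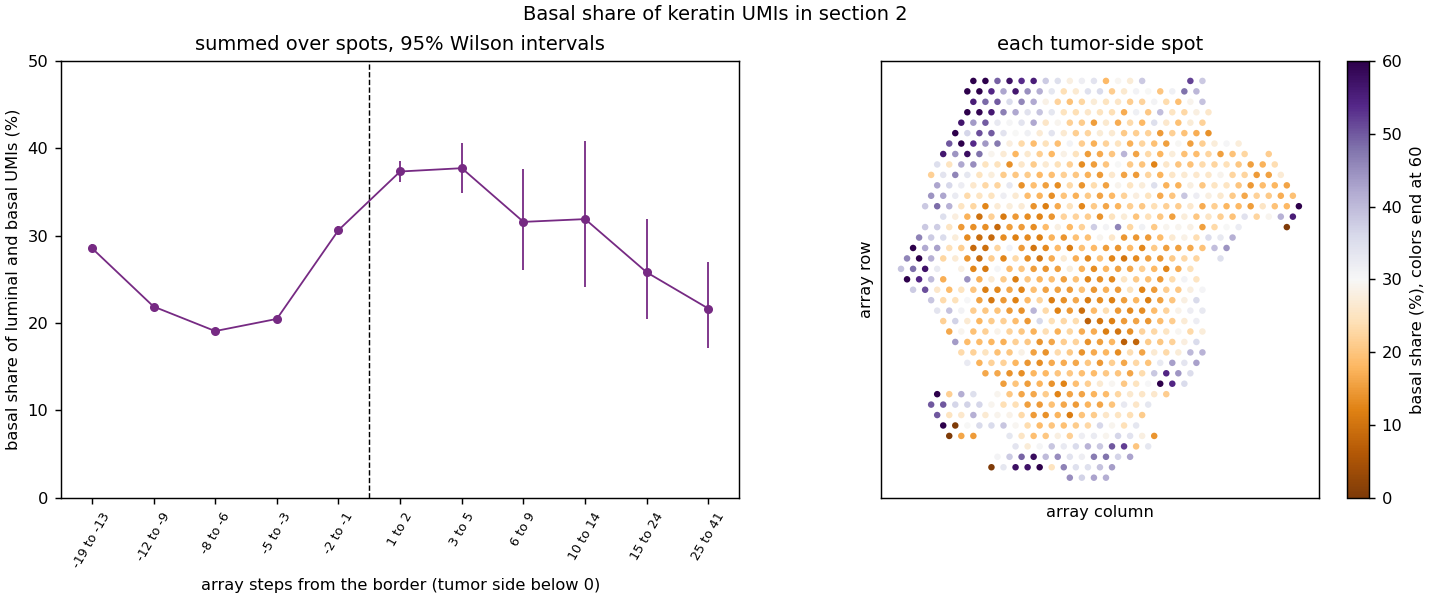
Basal keratin UMIs as a percentage of luminal and basal keratin UMIs in section 2, by array steps from the tumor border with 95% Wilson intervals (left) and in each tumor-side spot on the array (right, colors end at 60%). The share is lowest (19.1%) 6 to 8 steps inside the border and highest (37.7%) 3 to 5 steps outside, and spots of high share lie along the outer limits of the tumor.

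Single spots of the section 2 tumor side carried both groups. Over 850 spots the median was 284.5 luminal and basal keratin UMIs per spot, and the basal share had a 10th percentile of 13.9%, a median of 22.4% and a 90th percentile of 42.3%. In 39 spots basal UMIs were the majority. Spots next to each other had similar shares (Pearson r = 0.657 over 2401 neighboring pairs, which share 1 section and neighboring tissue). In section 1 the median spot held 2 such UMIs, and the same measure was −0.027. Thinned to 3000 UMIs, 98.6% of tumor, 80.4% of edge and 16.4% of neural spots of section 2 had a *Krt7* UMI, and 99.5%, 91.7% and 33.3% without thinning. In section 1 it was 1.35%, 0% (0 of 230 spots, a Wilson interval up to 1.64%) and 1.03%, and 13.7%, 9.57% and 2.11% without thinning. *Krt8* was in 6.92% (5.23 to 9.10), 2.61% (1.2 to 5.57) and 1.59% (1.14 to 2.22) of the spots of section 1 (63.3%, 23.0% and 4.10% without thinning), so more tumor than neural spots held it at equal depth.

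Across the 850 tumor-side spots of section 2, *Krt7* and *Krt8* went together most closely of the keratin pairs. Their Pearson correlation was 0.818, and *Krt14* and *Krt17* were next with 0.631. By Spearman these 2 pairs had 0.677 and 0.439. *Krt19* with *Krt8* (0.562) and with *Krt7* (0.554), among other pairs, then came before *Krt14* with *Krt17*. Correlations here (Pearson where not named, log2 of CPM + 10) are descriptions over spots of 1 section that share a library and differ in depth. *Krt19* had 0.605 with *Krt8* and 0.598 with *Krt7*. *Krt14* had 0.447 with *Krt5* and 0.518 with *Krt6a*. Between groups, *Krt5* and *Krt7* had 0.109 and *Krt17* and *Krt7* 0.562, so *Krt17* was closer to the luminal genes than *Krt5* was. The luminal and basal sums had a Pearson correlation of 0.499 and a Spearman correlation of 0.129, so the value depends on the measure. The luminal sum had 0.397 with the UMIs of the spot and the basal sum 0.0996. With the neural share of the spot the luminal sum had −0.534 and the basal sum −0.181. Correlations of genes with these sums and with each other were not adjusted for depth or neural share.

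Of 7323 other genes with enough UMIs in these spots, *Anxa1* was most like the luminal sum (r = 0.875), followed by *Pkp1* (0.830), *Epcam* (0.817), *Spint2* (0.804), *Cldn7* (0.804), *Gja1* (0.803), *Cldn4* (0.801) and *Wfdc2* (0.781). *Pkp1* encodes a desmosomal plaque protein, and *Cldn4* and *Cldn7* encode claudins of tight junctions. The genes most like the basal sum were *S100a6* (0.670), *Lgals7* (0.627), *Sdc1* (0.603), *S100a14* (0.585), *Tm4sf1* (0.563), *St3gal4* (0.555), *Itgb4* (0.550) and *Epcam* (0.541). Of these, *S100a6* (0.750), *S100a14* (0.626), *Tm4sf1* (0.638), *Itgb4* (0.678) and *Epcam* (0.817) had a higher correlation with the luminal sum, and *Lgals7* (0.477), *Sdc1* (0.584) and *St3gal4* (0.538) a lower one. *Itgb4* encodes the integrin chain of hemidesmosomes. By difference of correlations, *Nedd9*, *Klhdc7a*, *Kit*, *Anxa3* and *Tfcp2l1* leaned most toward the luminal sum (0.516 to 0.498). *Vim*, *Apod*, *Spp1*, *Gpx3* and *Timp1* leaned most toward the basal sum (−0.468 to −0.406), and their own correlation with the basal sum was between −0.236 and 0.0225. In section 1 the highest correlation of any gene with the luminal sum was 0.177.

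Partners of keratins were tested in the same fit. Of 18 genes of desmosomes, hemidesmosomes and their linkers, 4 rose in the tumor against neural tissue, none fell and 14 did not pass the test, with a median log2 fold change of 1.71. Of all genes 14.0% were called higher and 15.7% lower, which is the background for the edgeR counts of this and the next lists. DESeq2 called 7 of the 18, and without the section as a block 1 (*Plec*) was called. Of all 19229 genes DESeq2 called 4051 higher and 2977 lower, left 10709 uncalled and gave the rest no adjusted p. The fit without the block called 1420 higher and 2206 lower. *Pkp1* was at 51.9, 50.9 and 3.16 CPM in section 1 and at 940, 429 and 21.9 CPM in section 2, higher in tumor than in neural tissue in both, and its fold change was 4.78 ± 0.46 (adjusted p = 0.00531, edgeR). The others were *Col17a1*, a hemidesmosomal collagen with 1 UMI in the tumor of section 1 and none in its edge and neural tissue (4.93, adjusted p = 0.00347, from section 2 alone), *Ppl*, which encodes periplakin (3.30, 0.0360), and *Plec*, which encodes plectin, a linker of intermediate filaments (1.67, 0.00880). Of the 17 epithelial genes without keratins none passed the test, with a median of 2.16, 1 gene at an unadjusted p below 0.05, and 4 genes called by DESeq2 (*Spint1*, *Cdh1*, *St14* and *Epcam*). Of 13 mammary luminal genes without keratins *Gata3* (3.12, adjusted p = 0.00689) and *Esr1* (1.96, 0.0133) rose and 11 did not pass the test, a share near that of all genes called higher. DESeq2 called 4 of these 13. *Gata3* was at 57.5 CPM in the tumor and 8.82 in the neural tissue of section 1, and at 79.8 and 6.57 CPM in section 2. *Esr1* was at 35.5 and 7.79 CPM in section 1 and at 18.8 and 5.76 CPM in section 2. Both were thus raised also in the tumor of section 1, where the sum of the epithelial list stood at about its neural level. The mammary luminal list as a whole was not, at 179 CPM in the tumor and 204 CPM in the neural tissue of section 1. Its members went both ways there, such as *Kit* (27.7 against 78.2 CPM), *Cd24a* (30.8 against 71.9 CPM) and *Areg* (6.81 against 4.90 CPM). Of 9 mammary basal genes *Acta2* rose (2.77), *Myh11* fell by 0.99 on the log2 scale and 7 did not pass the test. *Acta2* was at 89.4 CPM in the tumor of section 1 and 68.6 CPM in that of section 2. *Trp63* and *Cdh3* went in opposite directions. In section 1 they were at 3.09 and 1.90 CPM in tumor against 5.58 and 4.15 CPM in neural tissue. In section 2 they were at 36.02 and 120 CPM against 5.53 and 7.02 CPM. Of the others, *Cnn1*, *Tagln* and *Mylk* were higher in both tumors, and *Oxtr* and *Lgr5* lower. Which cells held *Acta2* was not tested.

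Other intermediate filament genes differed between tumor and neural tissue. Of the 15 measured, 4 rose in the tumor, 7 fell and 4 did not pass the test, beside 14.0% of all genes called higher and 15.7% lower. The nuclear lamins *Lmna* (log2 fold change 3.01) and *Lmnb1* (2.01), the progenitor filament gene *Nes* (2.44) and the muscle filament gene *Des* (1.61) rose. The neurofilament genes *Nefm* (−7.14), *Nefl* (−6.91) and *Nefh* (−6.51) and the α-internexin gene *Ina* (−5.61) fell, as did *Synm*, *Bfsp1* and *Bfsp2*. The regions were divided by a list of neural transcripts, so a fall of neuronal filament genes follows from that division and is no independent result. *Vim* and *Gfap* did not pass the test. *Vim* was at 4572, 3587 and 476 CPM in section 1 and at 1157, 2133 and 716 CPM in section 2, so it was highest in the tumor of section 1, where keratins were low.

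Section 2 also held 2 detached pieces of low neural share, of 95 and 46 spots, that were in no region. Spots around these pieces stayed in the neural region, so its keratin levels in section 2 include them. *Krt7* was at 94.8 CPM over that region, and at 14.4 CPM of all UMIs in the zone 25 to 41 steps from the border. The part of the pieces in the neural sums was not tested. The piece of 95 spots resembled the tumor in keratins, with *Krt7* at 3614 CPM, *Krt8* at 1336, *Krt14* at 1409, *Krt17* at 994 and *Krt6a* at 306 CPM of all its UMIs, *Epcam* at 1660 CPM and a basal share of 33.4% (32.8 to 34.0). The piece of 46 spots had choroid plexus transcripts, with *Ttr* at 218237 CPM, *Clic6* at 3884 CPM and *Epcam* at 27.9 CPM. There *Krt8* was at 102 CPM and *Krt7* at 85.7 CPM, and *Krt8* gave 54.5% of their joint UMIs (44.8 to 63.8), against 27.0% (26.3 to 27.7) in the piece of 95 spots. In section 1, 87 neural spots with choroid plexus transcripts (*Ttr* at 7538 CPM) had *Krt8* at 9.90 CPM (11 UMIs), against 4.11 CPM in neural tissue. The hair keratins were higher there too, at 140 CPM against 61.7 CPM in neural tissue. Values of neural tissue are TMM-scaled and those of the 87 spots are not. These pieces were singled out after their values were seen.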

How the data were processed

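The values are those of 2 sections, 1 per mouse. Tissue detection and UMI counting by the authors used Space Ranger 2.1.1 (mm10, per the submitters' processing notes). What they deposited are raw counts of UMIs for each gene in each spot. The 3096 spot barcodes in both sections are set by the array. Spots with at least 500 UMIs and 10 genes were kept (3315 of 3406 and 3999 of 4017). The share of 35 neural genes was averaged over neighboring spots and divided by Otsu's method in each section, then UMIs were summed by section and region. Each sum was scaled by TMM (factors 0.872 to 1.198). The sections entered the fit as blocks, because regions of a section come from 1 animal, and the common dispersion was 0.0940 with and 0.175 without the block.

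The 6 sums were compared with edgeR 4.0.16 (R 4.3.3, filterByExpr by region, glmQLFit with robust estimation, glmQLFTest), with DESeq2 1.42.0 as an alternative. DESeq2 gave some genes no adjusted p, and those were not called. The SE of a fold change is its absolute value divided by the square root of its F value in the edgeR fit. Differences within a section were taken after adding 0.5 CPM. The 95% intervals (Wilson for shares, exact Poisson for levels) include only counting error. The fit was first tested on simulated counts. Python 3.11.15, numpy 2.4.6, scipy 1.17.1, pandas 2.3.3 and matplotlib 3.10.9 served for the rest. The keratins and lists were chosen with earlier results of these data known. Every keratin with at least 100 UMIs was named, and of the desmosome, mammary and other intermediate filament lists the called genes with the largest change. In tumor against neural tissue, edgeR called 2 of 8 fibroblast and meningeal genes higher (*Col1a1* and *Col3a1*) and 2 lower (*Ptgds* and *Slc6a13*). Of the 6 epidermis and hair genes it called *Lor* lower. Of all genes 14.0% were called higher and 15.7% lower. The lists for ependyma and macrophages are not described further, beyond their calls in tumor against neural tissue, 1 and 0 genes, and in choroid plexus 6 genes were lower.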

Additional observations from a re-analysis of the deposited data

How the results depend on the processing

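Of 51 results, the counts of called keratins moved most. Between tumor and neural tissue, 7 keratins were called, 12 when libraries were scaled by size alone, where the median of all genes shifts from −0.14 to −0.47, 9 by DESeq2, and 2 (*Krt222* and *Krt25*) with no replicate block. Of all 19229 genes, 5714, 6909, 7028 and 3626 were called in that order. Between edge and neural tissue 3 keratins were called, 5 by DESeq2 (*Krt222*, *Krt17*, *Krt80*, *Krt5* and *Krt8*) and 1 (*Krt222*) with no replicate block, beside 2724, 4719 and 1674 of all genes. Between tumor and edge the count was 0, and 1 by DESeq2, which gave only some of the keratins an adjusted p. The correlation of luminal and basal sums in section 2 was 0.499 by Pearson and 0.129 by Spearman. Of the called single genes, *Krt17* turned in direction without replicate 2 (−0.026, against 4.83 without replicate 1), and it had 1 UMI in each region of section 1. Genes without a call turned too, such as *Krt19* (−0.62) and *Krt6a* (−0.52) between tumor and neural tissue. In section 1 neither stood above the highest hair keratin. Without 1 replicate, values are differences within the other section, with no residual degrees of freedom and so no test and no count. *Krt8* and *Krt17* kept their calls of tumor over neural tissue under DESeq2, RLE factors, library size alone, no filter on low counts, a minimum of 1000 UMIs and both other edge widths. *Krt15* lost its call of edge over neural tissue with an edge of 1 step (adjusted p = 0.0544), and *Krt9* its call of tumor against neural tissue with an edge of 1 or 3 steps (0.0528 and 0.0668). Counting areas of at least 50 spots as tumor, a choice made after seeing the data, gave *Krt8* an adjusted p of 0.0528 and *Krt15* at the edge 0.0509. The causes were not tested. Counts were low for the hair keratins, with 4 to 147 UMIs per sum, and for the basal keratins in section 1, with 22 to 96 UMIs per sum over all 4.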
